A study of Mus musculus with 12 samples.

Results

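The Hox genes were taken as every gene probe of the array whose gene name begins with Hox, a cluster letter from a to d and a number. The rule found 49 probes of 38 genes among 41174 gene probes, and no probe was left out for its values. RefSeq lists 39 mouse Hox genes, and the 1 with no probe under this rule is Hoxc11. The Hoxa cluster on chromosome 6 had 14 probes of 11 genes, the Hoxb cluster on chromosome 11 had 14 probes of 10 genes, the Hoxc cluster on chromosome 15 had 9 probes of 8 genes and the Hoxd cluster on chromosome 2 had 12 probes of 9 genes.

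The samples were 8 mammary tumors of mice, all labelled ShcA-null, and each was set against 1 pool of NIC tumors on 2-colour Agilent arrays. ShcA, encoded by Shc1, is an adaptor that carries signals from ErbB2 and other receptor kinases to Ras. In NIC mice a mammary tumor virus promoter drives an activated Neu (ErbB2) together with Cre recombinase in mammary epithelium, and the series' design text spells the line of the pool MMPV-NIC. The labels do not give the Shc1 allele, the cells that lack it, the strain, the age or the number of tumors in the pool. The first array of every tumor carried the tumor RNA in Cy5, the red dye. A swapped array, with tumor RNA in the green Cy3, was added for each of tumors 1 to 4 and brought the number of arrays to 12. A value is the log2 ratio of the tumor over the pool, so 0 is the level of the pool and -1 is 2-fold below it.

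Hox genes encode transcription factors that bind DNA through a homeodomain, usually together with cofactors of the Pbx and Meis families. Their order along each cluster follows the order of their expression along the body axis, with the anterior genes (low numbers) at the 3′ end and the posterior genes (high numbers) at the 5′ end. Genes with the same number in different clusters are paralogs. In mice, the group 9 genes Hoxa9, Hoxb9 and Hoxd9 act together in the growth of the mammary gland during pregnancy, and Hoxc6 and Hoxc8 have also been tied to mammary development.

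The labels of the second arrays were in doubt. After the mean of each dye orientation was subtracted, the swapped array labelled tumor 1 correlated best with the first array of tumor 1 (r = 0.619, across 24874 probes). The swapped arrays labelled tumors 2, 3 and 4 correlated best with tumor 3, tumor 4 and tumor 8 by their first arrays (r = 0.893, 0.599 and 0.811), against r = -0.18, -0.59 and 0.07 with the tumors they are labelled as. Values per tumor are therefore given from the first arrays, the swapped arrays are given apart under their labels, and each Hox call is given with and without the doubtful arrays. Unless a setting is named, a mean over tumors, its SD and its p-value average both arrays of tumors 1 to 4 by label, the doubtful arrays included. Such an SD is therefore not the spread of the first-array values listed beside it. Shc1, the gene named in the label, was not called over the 8 tumors (mean log2 ratio 0.12 ± 0.65, SD, n = 8, limma adjusted p = 0.729). Its probe lay at -2.05 on the first array of tumor 3 and at -2.22 on the swapped array labelled tumor 2, and between -0.03 and 0.74 on the other 10 arrays. The deleted part of Shc1 is not given, so a probe outside it would check nothing. All 9 luminal epithelial genes listed as markers were well above background on every array in both RNAs.

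Detection split the Hox genes by position. The probe of an anterior or central gene was usually bright in both RNAs, and most posterior genes were dim in both. Of the 49 probes, 32 were kept because either RNA was well above background in at least 4 tumors. The kept probes comprised 8 of 11 anterior probes (numbers 1 to 3), 16 of 18 central probes (4 to 8) and 8 of 20 posterior probes (9 to 13). Probes of Hoxa11, Hoxa13, Hoxb8, Hoxb13, Hoxc12, Hoxc13, Hoxd1, Hoxd3, Hoxd11, Hoxd12 and Hoxd13 were not kept, nor were 1 of 2 probes of Hoxb9 and of Hoxc10. These 17 probes were well above background on at most 2 of 12 arrays in the tumor RNA and on at most 1 in the pool. Hoxb13, known from the hindgut and prostate, and Hoxd12, a gene of the limb, were above background on 0 of 12 arrays in either RNA. Among kept probes, Hoxb1 was seen on few arrays (5 in tumor RNA and 4 in the pool), as were Hoxd10 (7 and 2) and the Hoxd9 probes (7 and 6 for A_51_P430728, 7 and 5 for A_52_P385584). Some were seen on fewer arrays in the tumor RNA than in the pool, among them Hoxa4 A_52_P638382 (7 and 12) and Hoxc10 A_51_P375754 (8 and 11). Fewer cells of a type and less RNA per cell cannot be told apart in such bulk samples.

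**Figure D1:**
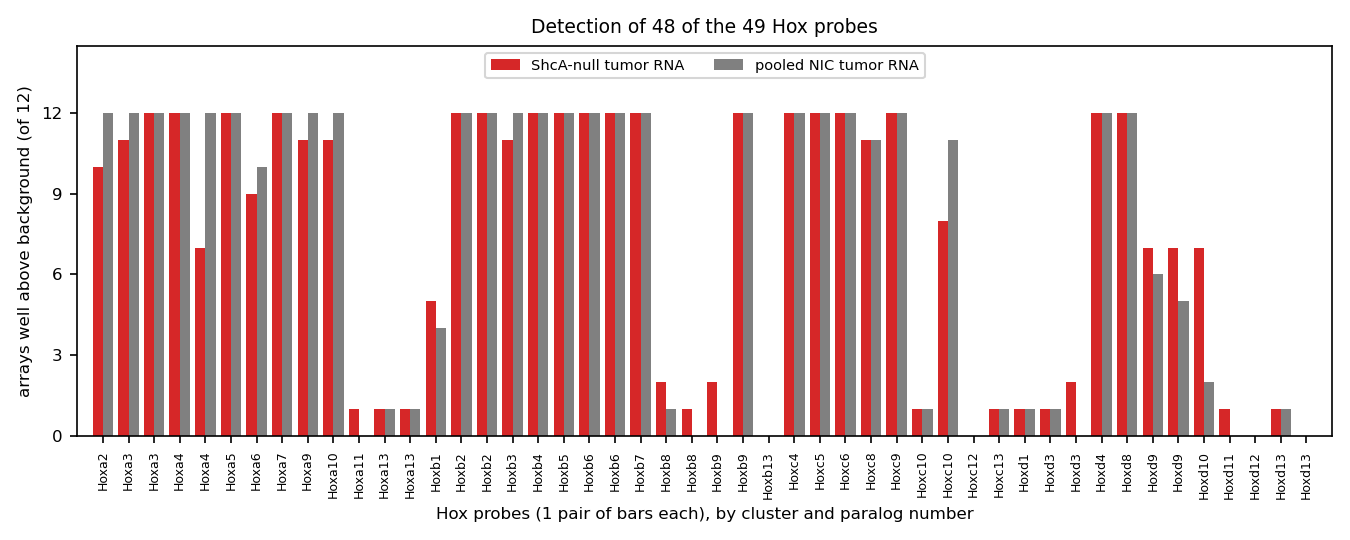
Number of the 12 arrays (vertical axis) on which each of 48 of the 49 Hox probes was well above background in the tumor RNA (red bars, left of each pair) and in the pool (grey bars), ordered by cluster and number. Grey bars reach 12 for most of Hoxa2 to Hoxa10, where red bars run from 7 to 12. Bars of both colours reach 12 for most of Hoxb2 to Hoxb7 and are at 2 or below for the 17 probes that were not kept.

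Of the 32 kept probes, 31 were tested, and 5 differed from the pool in limma fitted over all 30796 probes (Benjamini-Hochberg adjusted p under 0.05), against 15.3% of all probes tested. Both probes named Hoxb2, the probe of Hoxb4 and the probe of Hoxa9 were lower (4 probes of 3 genes by name), against 10.1% of all probes called lower. Of the probes named Hoxb2, A_51_P257789 lies on the strand opposite to the gene. A single probe, of Hoxb6, was higher, against 5.19% of all probes called higher. All 4 lower probes were past 2-fold, and 3.2% of all probes were called lower by at least that much. The other 26 tested probes were not called. At an unadjusted p under 0.05 there were 8 Hox probes, against 31.2% of all probes. The median of the 31 means was 0.22, and the median of all probes tested was -0.05. Centring each array on its median in place of loess moved the median of all probes to 0.10, and the same 5 Hox probes were called, against 14.3% of all probes. It turned the split of all called probes to 2788 higher and 1608 lower (63.4% higher), against 1599 higher and 3100 lower with loess. Nothing particular to Hox genes is read from these counts.

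Under other settings 4 Hox probes were lower on the first arrays (12.4% of all probes were lower there). There were 3 lower in a fit with a dye term that blocked each swapped array with the first array it matched best, called best-matching pairs from here on (3.62%). There were 2 on the swapped arrays (3.74%, 1 of them Hoxc4) and 1 within slide 1 (2.01%, A_51_P257789, named Hoxb2), which holds the first arrays of tumors 1 to 4. Slide 2 holds those of tumors 5 to 8. Higher were 0 probes with best-matching pairs (2.52%), 2 with the scanner's processed signals (5.71%), 4 with outlier spots kept (6.87%) and 4 in the authors' deposited values (7.24%), where 8 Hox probes were called in either direction (17.3%). The second probe called with processed signals was Hoxd9 A_52_P385584 (0.95, limma adjusted p = 0.0464). Hoxb4 and both probes named Hoxb2 were called lower in all of these settings but the swapped arrays and the slides. On the swapped arrays and within slide 1 only A_51_P257789 of these was called, and within slide 2 none was. The probe on the strand of Hoxb2, A_52_P15300, was not called on the swapped arrays (limma adjusted p = 0.138) or within slide 1 (limma adjusted p = 0.0719).

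**Figure D2:**
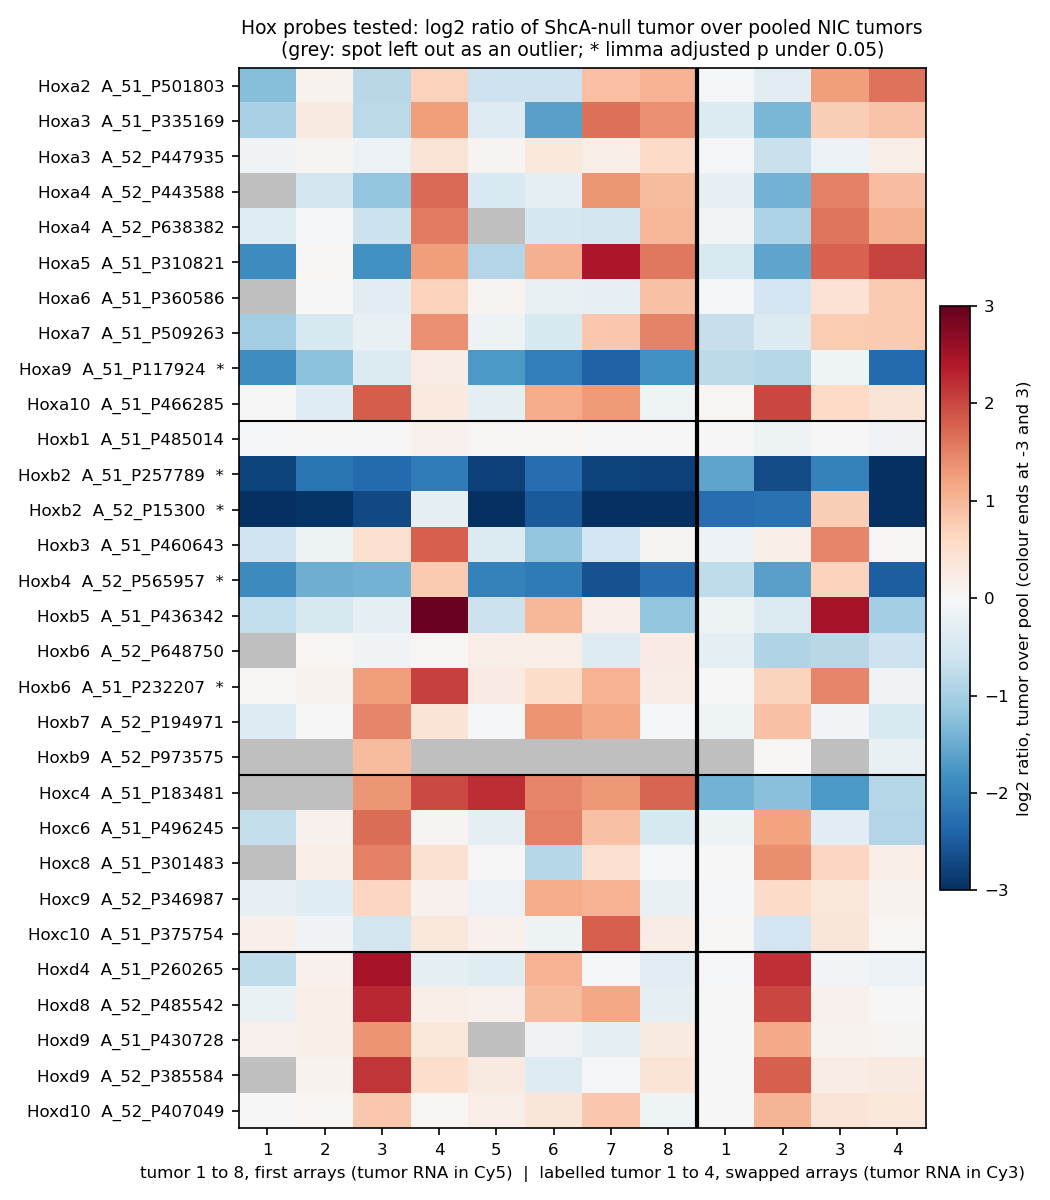
Log2 ratio of tumor over pool (colour, blue below and red above the pool) for 30 of the 31 tested Hox probes (rows, by cluster and number) on the 8 first arrays (columns left of the black line) and the 4 swapped arrays (right of it). Hoxb2, Hoxb4 and Hoxa9 are blue in nearly every column, Hoxa2 to Hoxa7 are mostly red in tumors 4, 7 and 8, Hoxd4 to Hoxd9 are red in tumor 3, and Hoxc4 changes colour at the line.

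Hoxb2 patterns the hindbrain and gave the largest mean difference of the tested Hox genes. A pair of probes on opposite strands carries its name. Probe A_52_P15300 (NM_134032, mm7 chr11:96462847-96462906) lies on the plus strand, as do the genes of the Hoxb cluster. Probe A_51_P257789 carries the name Hoxb2 in the file but comes from the cDNA AK036636 and lies on the minus strand, 3262 bases away (mm7 chr11:96459585-96459644). It was the 1 probe of 49 on the strand opposite to its cluster and is described apart. Which transcript it reads was not tested, so Hoxb2 itself rests on the plus-strand probe. Its sequence, read 5′ to 3′ on the minus strand, is shown because the strand of this probe is opposite to that of the gene it is named for.
Hoxb2 A_51_P257789: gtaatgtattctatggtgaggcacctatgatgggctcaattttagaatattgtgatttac

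On the first arrays the plus-strand probe of Hoxb2 (A_52_P15300) read -3.62, -2.94, -2.72, -0.27, -3.34, -2.52, -3.39 and -3.79 in tumors 1 to 8. The swapped arrays, in the order of their labels from tumor 1 to tumor 4, gave -2.29, -2.23, 0.74 and -3.96. It was below the pool on 11 of 12 arrays, and tumor 4 stood near the pool while the other 7 were more than 4-fold below it. The mean over tumors was -2.71 ± 0.88 (SD, n = 8), a 6.54-fold lower level than in the pool (limma adjusted p = 0.00099). Without the swapped arrays labelled tumors 2, 3 and 4 the mean was -2.74 (limma adjusted p = 0.00277), and with best-matching pairs it was -2.48 (limma adjusted p = 0.00859). On the swapped arrays alone it was -1.93 and not called (limma adjusted p = 0.138). Its fitted dye difference was -0.68 (log2, tumor in red minus tumor in green, limma adjusted p = 0.0176). Within slide 1 the mean was -2.39 (limma adjusted p = 0.0719) and within slide 2 it was -3.26 (limma adjusted p = 0.0669), and within slide 2 no probe of the array passed the threshold, though 19.1% had an unadjusted p under 0.05.

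The minus-strand probe (A_51_P257789) had the narrowest spread of the called probes. It read -2.78, -2.19, -2.33, -2.09, -2.81, -2.27, -2.77 and -2.80 in tumors 1 to 8 on their first arrays, and -1.58, -2.67, -2.04 and -3.94 on the swapped arrays. All 12 arrays were below the pool, which held for 5.2% of all probes tested. The mean was -2.56 ± 0.33 (SD, n = 8), 5.89-fold below the pool (limma adjusted p = 3.71e-05). Tumor 4, which was near the pool at the plus-strand probe, was below it here like the others. The call was also made with best-matching pairs (-2.54, limma adjusted p = 0.0107) on the 4 swapped arrays alone (-2.56, limma adjusted p = 0.0254) and without the 3 doubtful arrays (-2.43, limma adjusted p = 4.95e-05).

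Hoxb4, known for the expansion of blood stem cells, lies 33.6 kb from the plus-strand Hoxb2 probe. Its probe lies on the plus strand, as the gene does (mm7 chr11:96429246-96429305), and its sequence is shown beside that of the minus-strand Hoxb2 probe because it is the other Hoxb gene called lower.
Hoxb4 A_52_P565957: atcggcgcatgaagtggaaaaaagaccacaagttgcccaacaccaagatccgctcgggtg

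The Hoxb4 probe (A_52_P565957) read -1.91, -1.46, -1.42, 0.79, -2.02, -2.12, -2.61 and -2.27 in tumors 1 to 8, and its swapped arrays gave -0.76, -1.62, 0.68 and -2.47. Tumor 4 was again the exception, above the pool, and the other 7 tumors were below it. The mean was -1.64 ± 0.76 (SD, n = 8), 3.12-fold below the pool (limma adjusted p = 0.00395). It was -1.56 without the 3 doubtful arrays (limma adjusted p = 0.0148) and -1.54 with best-matching pairs (limma adjusted p = 0.0462). Within slides it was -1.001 on slide 1 (limma adjusted p = 0.224) and -2.26 on slide 2 (limma adjusted p = 0.0669).

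Hoxa9, a group 9 gene of the mammary gland and a partner of Meis1 in blood progenitors and leukaemia, showed a similar order of tumors. Its probe (A_51_P117924) read -1.86, -1.23, -0.41, 0.22, -1.72, -2.07, -2.43 and -1.81 in tumors 1 to 8, and -0.79, -0.86, -0.14 and -2.32 on the swapped arrays. Tumor 7 was lowest for both Hoxa9 and Hoxb4, and tumors 4 and 3 were highest for both. The mean was -1.47 ± 0.68 (SD, n = 8), 2.76-fold below the pool (limma adjusted p = 0.00417), and it was -1.35 without the 3 doubtful arrays (limma adjusted p = 0.0139). The call was lost with best-matching pairs, where the mean was -1.43 (limma adjusted p = 0.0625). It was -0.82 within slide 1 (limma adjusted p = 0.201) and -2.01 within slide 2 (limma adjusted p = 0.0669). The other group 9 genes of the gland, Hoxb9 and Hoxd9, were not called. Hoxd9 averaged 0.22 ± 0.37 (n = 7) and 0.35 ± 0.52 (n = 8) by its probes, and the kept Hoxb9 probe was measured in 3 tumors only.

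**Figure D3:**
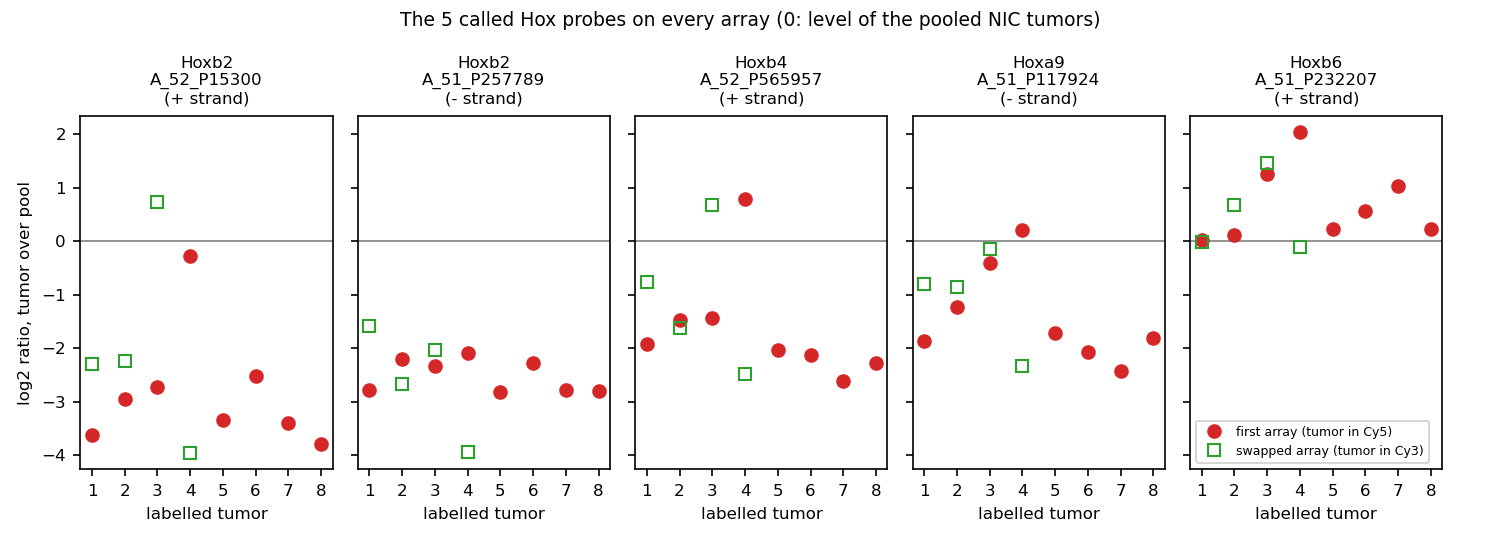
Log2 ratio of tumor over pool (vertical axis) on each array by labelled tumor (horizontal axis) for the 5 called Hox probes, with first arrays as filled circles, swapped arrays as open squares and the pool at 0. The plus-strand Hoxb2 probe, Hoxb4 and Hoxa9 share a high first array of tumor 4 and a high swapped array labelled tumor 3, while the minus-strand Hoxb2 probe stays below -1.5 on every array.

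Hoxb3, which lies between Hoxb4 and Hoxb2, was not called. Its probe (A_51_P460643) gave -0.59, -0.15, 0.47, 1.80, -0.41, -1.16, -0.57 and 0.08 in tumors 1 to 8 and a mean of -0.07 ± 0.73 (SD, n = 8, limma adjusted p = 0.865).

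Hoxb3 and Hoxb2 neighbour each other, and a probe between theirs that carries neither name was picked after its values were seen (A_52_P312467, named TC1432492 in the file, mm7 chr11:96456727-96456786, plus strand). Whether it reads a transcript of either gene was not tested. It lies 1888 bases from the Hoxb3 probe and 2858 bases from the minus-strand Hoxb2 probe. It read -4.00, -2.93, -2.09, 1.11, -3.68, -1.62, -2.78 and -3.83 on the first arrays, and -1.35, -1.24, 2.22 and -2.85 on the swapped arrays. Its mean was -2.18 ± 1.34 (SD, n = 8, limma adjusted p = 0.00962). It was -2.31 without the 3 doubtful arrays (limma adjusted p = 0.0143) and was not called with best-matching pairs (-1.77, limma adjusted p = 0.0843). Nor was it called on the swapped arrays alone (-0.81, limma adjusted p = 0.512). Its fitted dye difference was -1.41 (log2, tumor in red minus tumor in green, limma adjusted p = 0.000854). Tumor 4 and the swapped array labelled tumor 3 were above the pool and all others below, as for Hoxb4.

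Tumor 4 stood out across neighbouring Hoxb genes. On its first array Hoxb3 (1.80), Hoxb4 (0.79), Hoxb5 (2.95), the called Hoxb6 probe (2.04) and the plus-strand Hoxb2 probe (-0.27) each had the highest value of the 8 tumors. The swapped array labelled tumor 3, which matched it best, was likewise the highest of the swapped arrays at Hoxb3 (1.47), Hoxb4 (0.68), Hoxb5 (2.50), Hoxb6 (1.47) and Hoxb2 (0.74). Farther along the cluster the difference was smaller, since Hoxb7 read 0.40 in tumor 4 and between -0.39 and 1.46 over all tumors. Hoxb1, at the other end, lay between -0.05 and 0.13, but it was above background on only 5 arrays in the tumor RNA and 4 in the pool. Ratios near 0 at so dim a probe cannot show whether the difference was smaller there. Hoxb5, a gene of the enteric nervous system and of blood stem cells, read -0.75, -0.48, -0.28, 2.95, -0.65, 0.99, 0.16 and -1.18 on the first arrays. With the swapped arrays averaged in under their labels, its tumor values ran only from -1.18 to 1.11. Their mean was 0.06 ± 0.87 (SD, n = 8, limma adjusted p = 0.896). The median of the luminal markers was 1.99 in tumor 4, the highest of the 8 first arrays (0.14 to 1.24 in the others), and its part in the Hoxb values was not tested.

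Hoxb6 is the one tested gene whose probes had means of opposite sign. The called probe (A_51_P232207, NM_008269) read 0.03, 0.12, 1.25, 2.04, 0.24, 0.56, 1.04 and 0.23 on the first arrays, and -0.01, 0.67, 1.47 and -0.11 on the swapped arrays. Its mean was 0.60 ± 0.47 (SD, n = 8, limma adjusted p = 0.036), and it was no longer called on the first arrays alone (0.69, limma adjusted p = 0.0641), with best-matching pairs (0.50, limma adjusted p = 0.188), without the 3 doubtful arrays (0.69, limma adjusted p = 0.0729) or without tumor 2, 3, 4, 7 or 8. The other probe (A_52_P648750, X56459) was measured in 7 tumors on the first arrays and read 0.05, -0.10, 0.06, 0.19, 0.19, -0.39 and 0.24 in tumors 2 to 8. On the swapped arrays it read -0.27, -0.90, -0.84 and -0.63, all below the pool, and its mean was -0.15 ± 0.30 (SD, n = 8, limma adjusted p = 0.413). On the first arrays alone its mean was 0.03, above the pool like that of the called probe, and its fitted dye difference was 0.84 (log2, tumor in red minus tumor in green, limma adjusted p = 6.66e-07), against 0.37 at the called probe (limma adjusted p = 0.0109). With a dye term and labelled tumors as blocks, A_52_P648750 was called lower (-0.31, limma adjusted p = 0.0317). In that fit A_51_P232207 was not called (0.60, limma adjusted p = 0.0524). The called direction of Hoxb6 thus rests on 1 of its probes and on the setting.

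**Figure D4:**
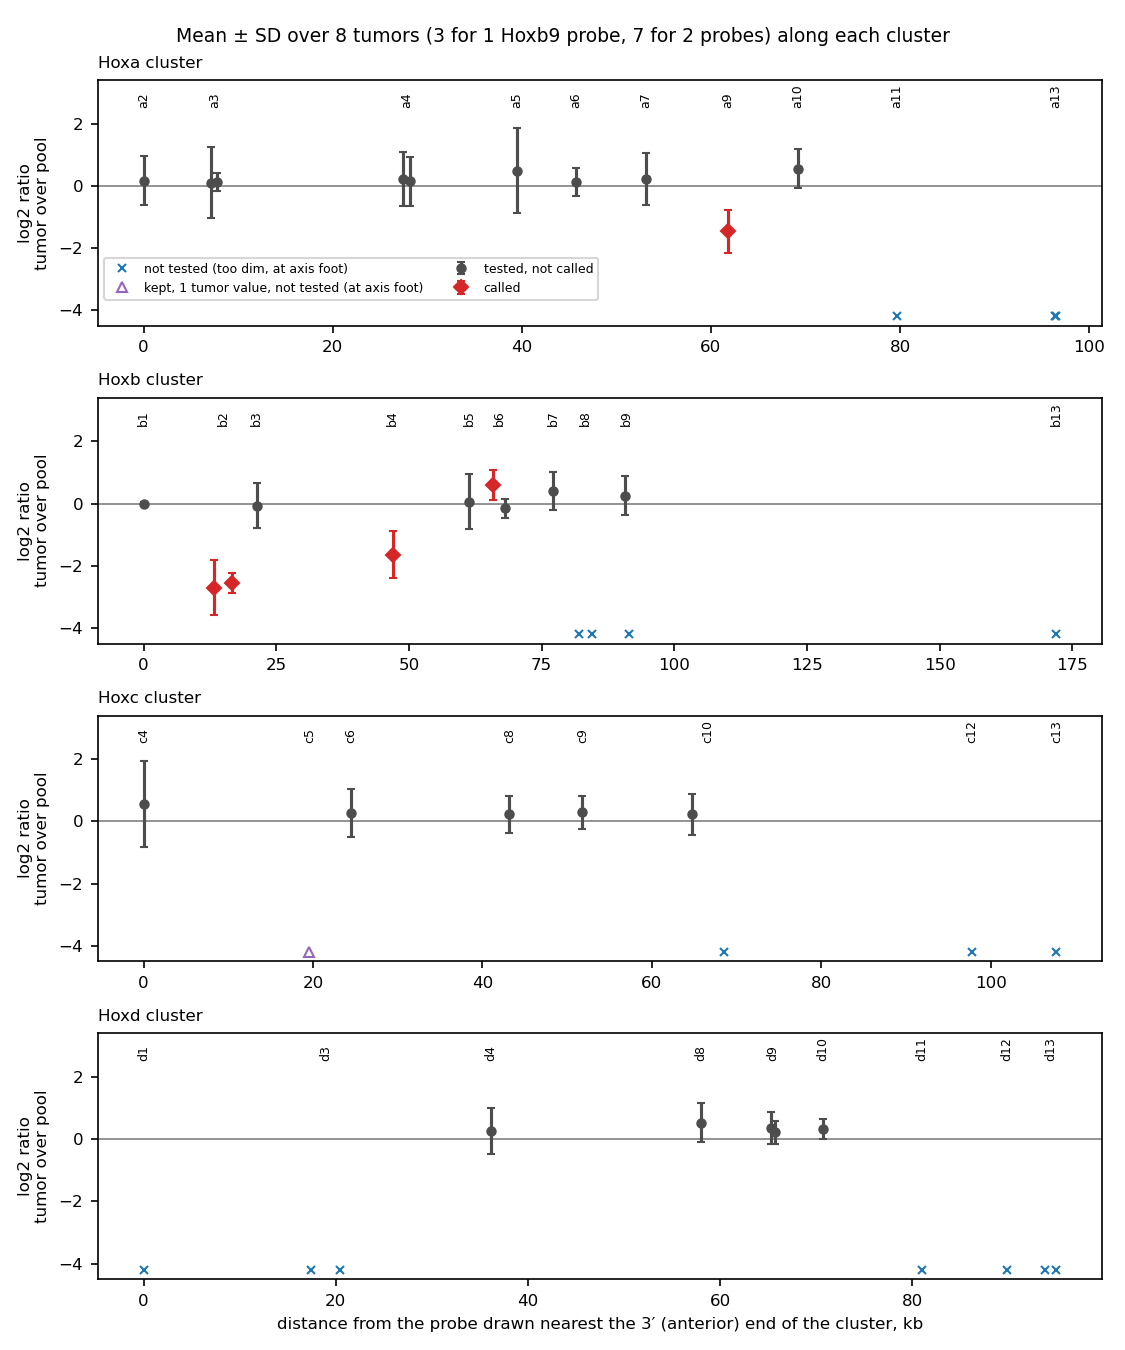
Mean log2 ratio of tumor over pool with its SD over tumors (vertical axis) for 48 of the 49 Hox probes against the distance in kb from the anterior end of each cluster (horizontal axis), with called probes as red diamonds, tested probes as grey circles and probes without a test at the foot of each panel. Called probes lie at Hoxa9 and at Hoxb2, Hoxb4 and Hoxb6, and the untested probes gather at the posterior ends and at Hoxd1 and Hoxd3.

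None of the 8 tested probes of Hoxa2 to Hoxa7 was called, and their means ran from 0.09 to 0.48, with larger differences between tumors. The median of these 8 probes on the first arrays was 1.25 in tumor 4, 1.02 in tumor 8 and 0.85 in tumor 7, near the pool in tumor 2 (0.02), and -0.39, -0.40, -0.72 and -1.01 in tumors 6, 5, 3 and 1. Hoxa5, a regulator of lung and mammary epithelium, spanned the widest range, with -1.89, 0.04, -1.81, 1.25, -0.88, 1.07, 2.43 and 1.57 in tumors 1 to 8 (mean 0.48 ± 1.37, SD, n = 8, limma adjusted p = 0.462). Hoxa7 read -1.04 in tumor 1 and 1.48 in tumor 8, and Hoxa2 read -1.27 and 1.04 in the same tumors.

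The Hoxa3 probes had the same sign of the mean (0.09 ± 1.15 for A_51_P335169 and 0.12 ± 0.29 for A_52_P447935, SD, n = 8 each) but unlike spreads. The first ran from -1.63 to 1.65 on the first arrays and the second from -0.18 to 0.58. The Hoxa4 probes gave 0.22 ± 0.87 (A_52_P443588, n = 8) and 0.15 ± 0.79 (A_52_P638382, n = 7), and both were highest in tumor 4 (1.70 and 1.57). They differed in sign in tumor 7 (1.32 and -0.55). A_52_P638382 was above background on 7 of 12 arrays in the tumor RNA, against 12 in the pool. Hoxa6 averaged 0.12 ± 0.45 and Hoxa7 0.21 ± 0.84 (SD, n = 8 each). The order of tumors broke at Hoxa9, described above, which was lowest in tumor 7, where Hoxa5 was highest. Hoxa10, a gene of the uterus and limb, followed neither and was highest in tumors 3, 7 and 6 (1.82, 1.28 and 1.12), with a mean of 0.55 ± 0.63 (SD, n = 8, limma adjusted p = 0.102). On the swapped arrays the median of Hoxa2 to Hoxa7 was -0.16, -0.79, 1.01 and 0.89 under the labels of tumors 1 to 4. The last 3 of these were nearer to tumors 3, 4 and 8 than to the tumors of their labels. On the swapped array labelled tumor 1 the probes of Hoxa2 to Hoxa7 ran from -0.68 to -0.02. In the authors' deposited values they ran from -1.53 to -0.11 on that array, so the -0.16 depends on the processing.

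No Hoxc or Hoxd gene was called. Hoxd4, Hoxd8, Hoxd9 and Hoxd10 (5 probes, all with a positive mean) had a median of 2.15 in tumor 3, against -0.13 to 0.37 in the other 7 tumors. Hoxd4 read -0.77, 0.13, 2.49, -0.26, -0.35, 1.05, -0.05 and -0.35 in tumors 1 to 8 (mean 0.25 ± 0.74, SD, n = 8, limma adjusted p = 0.492). Hoxd8 read -0.19, 0.19, 2.26, 0.17, 0.12, 0.95, 1.16 and -0.27 (mean 0.53 ± 0.62, SD, n = 8, limma adjusted p = 0.11). The Hoxd9 probes read 1.34 and 2.15 in tumor 3 and no more than 0.53 in the other 6 tumors measured. A spot of each was left out as an outlier, and kept it would read 0.83 (A_51_P430728, tumor 5) and 1.32 (A_52_P385584, tumor 1). Hoxd10 read 0.81 in tumor 3 and 0.82 in tumor 7 (mean 0.33 ± 0.32, SD, n = 8). The swapped array labelled tumor 2, which matched tumor 3 best, had a Hoxd median of 1.80, and the other 3 swapped arrays lay between 0.01 and 0.12.

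Hoxb7, Hoxc6, Hoxc8 and Hoxc9, central and posterior genes of the trunk, were also high in tumor 3, with a median of 1.49, and in tumors 6 and 7 (1.23 and 0.96). Hoxc6 read -0.71, 0.13, 1.68, 0.08, -0.28, 1.51, 0.88 and -0.49 in tumors 1 to 8 (mean 0.27 ± 0.76, SD, n = 8, limma adjusted p = 0.479). Hoxb7 averaged 0.40 ± 0.61, Hoxc8 0.23 ± 0.59 and Hoxc9 0.30 ± 0.53 (SD, n = 8 each). Hoxc8 differed from the other 3 genes in tumor 6, where it read -0.85. Hoxc10 (A_51_P375754) was high in tumor 7 alone (1.78, against -0.55 to 0.34 in the others), with a mean of 0.23 ± 0.66 (SD, n = 8).

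Tumor 3 also stood apart in its cell type markers. The 15 probes of 8 fibroblast genes, all 8 of them above background on every array in both RNAs, had a median of 2.23 in tumor 3 and of -0.72 to 0.51 in the other tumors. The skeletal muscle markers had a median of 3.98 in tumor 3 (-0.09 to 2.27 in the others), with 2 of 6 genes above background on every array in the tumor RNA, and the myoepithelial and basal markers a median of 2.16 (-0.24 to 1.08 in the others). The leukocyte and endothelial lists were also highest in tumor 3 (1.33 and 1.01), while the adipocyte list and the lymph node stroma list were highest in tumor 7 (1.82 and 3.54). The part of these cell types in the high Hoxc and Hoxd values was not tested. Over the 8 tumors, 0 of 8 fibroblast genes were called (median 0.05), against 3 of 3 tested lymph node stroma genes higher (median 1.88), 3 of 8 myoepithelial and basal genes higher (0.24), 2 of 5 tested muscle genes higher (0.68) and 1 of 9 luminal genes higher (0.73). Of the leukocyte genes, 1 of 8 was lower (0.21). Of the endothelial genes 0 of 6 were called (-0.14), and of the adipocyte genes 0 of 6 (-0.30). By probes, 4 of 4 were higher for lymph node stroma, 3 of 11 for myoepithelial and basal, 2 of 8 for muscle and 2 of 11 for luminal. For leukocytes 1 of 14 probes was lower, and 0 of 15 fibroblast probes were called. Of all probes, 5.19% were higher and 10.1% lower.

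Hoxc4, a regulator of antibody gene switching in B cells, and its neighbour Hoxc5 gave ratios whose sign followed the dye. The Hoxc4 probe read 1.33, 1.97, 2.21, 1.46, 1.31 and 1.76 in tumors 3 to 8 on their first arrays, and -1.42, -1.26, -1.73 and -0.85 on the 4 swapped arrays. The red signal was thus the brighter on all 10 arrays measured, whichever RNA carried red, and a first array above and a swapped array below the pool throughout, or the reverse, was seen in 4.29% of all probes. The fitted dye difference was 2.97 (log2, tumor in red minus tumor in green, limma adjusted p = 6.92e-08, best-matching pairs). The mean over tumors was 0.55 ± 1.38 (SD, n = 8, limma adjusted p = 0.403), and it was 1.67 on the first arrays (limma adjusted p = 0.00115) and -1.32 on the swapped arrays (limma adjusted p = 0.0208). For Hoxc5, 11 of 12 spots were left out as outliers, which left no test. With outlier spots kept, the 8 first arrays of Hoxc5 ran from 1.32 to 2.11 and its swapped arrays from -1.88 to -1.03. The kept Hoxb9 probe, with 9 spots left out, ran from 0.96 to 2.29 and from -1.54 to 0.03 when they were kept. These 3 genes were called higher when outlier spots were kept and in the authors' deposited values (Hoxc4 0.99, Hoxc5 1.01 and Hoxb9 1.21, limma adjusted p = 0.0357, 0.0353 and 0.0179), so no direction is given for them.

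**Figure D5:**
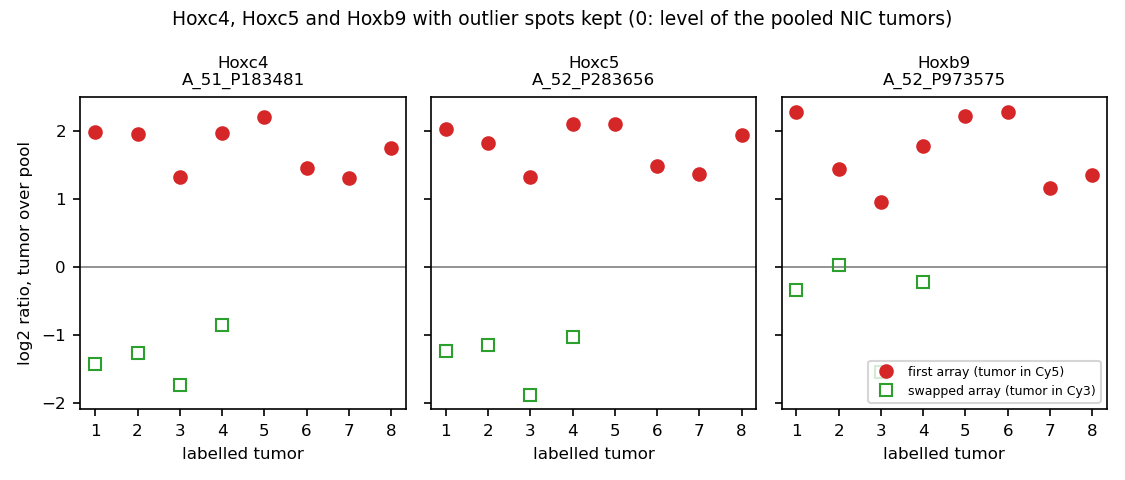
Log2 ratio of tumor over pool (vertical axis) by labelled tumor (horizontal axis) for Hoxc4, Hoxc5 and the kept Hoxb9 probe with outlier spots kept, with first arrays (tumor in Cy5) as filled circles and swapped arrays (tumor in Cy3) as open squares. All first arrays lie above 0.9, and the swapped arrays lie below 0 except 1 Hoxb9 value at 0.03.

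In the authors' deposited value table the 4 lower probes had similar means over tumors. On the swapped array labelled tumor 1 the deposited values were farther below the pool. They were -3.36 and -3.38 for the plus- and minus-strand Hoxb2 probes, -2.21 for Hoxb4 and -1.96 for Hoxa9. The ratios used here were -2.29, -1.58, -0.76 and -0.79. That array had the lowest correlation with the deposited values (r = 0.822, against 0.922 to 0.985 on the others). Averaged per tumor, the table gave -2.71 ± 0.99 for the plus-strand Hoxb2 probe, -1.84 ± 0.74 for Hoxb4, -1.63 ± 0.64 for Hoxa9 and -2.65 ± 0.49 for the minus-strand Hoxb2 probe (SD, n = 8 each), and limma called all 4. The plus-strand Hoxb2 probe was below the pool on 11 of 12 arrays in the table too, with a range of -3.87 to 0.73.

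Genes that act with or on Hox genes were taken from lists. Of the 11 TALE cofactor genes, which encode the Pbx, Meis, Pknox and Tgif proteins, 1 was lower and 10 were not called, with a median of -0.02. The lower one was Meis1, by both probes (-0.81 and -0.90, limma adjusted p = 0.00531 and 0.0135), and it was not called with best-matching pairs (adjusted p = 0.164 and 0.208). Of the 12 tested genes that flank the clusters, Snx10, next to Hoxa, was higher (0.51, limma adjusted p = 0.0141) and Hibadh, also beside Hoxa, was lower (-0.62, limma adjusted p = 0.00774). The Hibadh call was lost with best-matching pairs (adjusted p = 0.0908) and the difference was near 0 with median centring (-0.04, limma adjusted p = 0.93). The other 10 were not called, Evx2 at the posterior end of Hoxd among them (0.53, limma adjusted p = 0.0776), and the list median was 0.07. Snx10 was read by another probe of the opposite sign (-0.39, not called). By probes, 0 were higher and 2 lower of 19 for the TALE list. For the flanking list 1 was higher and 1 lower of 25, against 5.19% higher and 10.1% lower of all probes.

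Among Polycomb genes, whose products keep Hox clusters silent, 1 of 28 was higher and 4 were lower. The lower ones included Cbx6 (-1.23, limma adjusted p = 0.0317, by 1 of 3 probes), Phc1 (-0.50) and Jarid2 (-0.47), and the higher one was Rbbp7 (0.47). Among 15 Trithorax group and H3K27 demethylase genes, which counter Polycomb, 2 were higher (Kmt2d 1.00 and Dpy30 0.34) and 5 lower. The lower ones included the methyltransferase genes Kmt2c (-1.89, -1.13 and -0.68 by 3 of its 6 probes) and Ash1l (-1.17 and -0.74 by 2 of 3), the demethylase gene Kdm6b (-1.40) and Mllt3 (-1.01 and -1.11 by 2 of 5). The medians of these lists were -0.25 and -0.27, below the -0.05 of all probes. Tumors 6 and 7 stood apart, with medians of -0.49 and -0.44 for the Polycomb list and -0.98 and -0.86 for the Trithorax list, against -0.25 to -0.06 and -0.31 to -0.08 in the other 6 tumors. By probes, 1 was higher and 4 lower of 48 for Polycomb, and 2 were higher and 9 lower of 31 for Trithorax, against 5.19% higher and 10.1% lower of all probes. Rbbp7, Kmt2d, Dpy30 and, below, Msx1 were named after their values were seen.

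Retinoic acid induces the anterior Hox genes in embryos. Of 17 genes of its synthesis, receptors and breakdown, 2 were higher, among them the retinal-oxidising enzyme gene Aldh1a3 (1.26). A further 2 were lower, the retinol carrier receptor gene Stra6 (-1.09) and the receptor gene Rarb (-0.68), and the median was 0.01. Of 18 tested other homeobox and T-box genes of the mammary gland and its ectoderm, Msx1 was higher (1.21 by 1 of 2 probes) and 5 were lower, among them Barx2 (-2.29, -2.15 and -1.33), Tbx3 (-2.20 and -0.64), Satb1 (-1.65) and Msx2 (-1.26). The only tested gene of the Cdx and ParaHox list was Gsx1, a neural gene of the ParaHox cluster, at 1.74 in the 3 tumors with a value (limma adjusted p = 0.0149). Those 3 values are all from first arrays, the other 9 arrays gave no value once outlier spots were left out, and with outlier spots kept the mean was 1.06 (limma adjusted p = 0.0379). In the authors' deposited table Gsx1 was above the pool on 8 arrays and below it on 4, from -1.94 to 2.31, so no direction is given. By probes, 3 of 25 were higher and 2 lower for retinoic acid, and 1 of 32 was higher and 8 lower for the other homeobox genes, against 5.19% and 10.1% of all probes. With best-matching pairs, 0 genes of the TALE list were called. In that fit 2 flanking genes were higher, Snx10 and Lnpk (0.53, limma adjusted p = 0.0371, named after its value was seen), and none was lower. Of the other lists, 3 Polycomb genes were lower, 1 Trithorax group gene was higher and 3 were lower. There, 1 retinoic acid gene was lower, and 3 of the other homeobox genes were lower. Of all probes, 2.52% were called higher and 3.62% lower in that fit.

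Promoter sequence is given for Hoxa9 and Hoxb4, since both were lowest in tumor 7 and highest in tumor 4. They are the called genes among the 22 Hox genes in the promoter set searched (RefSeq, GRCm38.p6). Hoxb2 and Hoxb6 have no promoter in that set. Shown are the 250 bases before the annotated start, 5′ to 3′ on the strand of the gene, at chr6:52227371-52227620 (minus strand) and chr11:96318017-96318266 (plus strand). Capitals mark matches, on either strand, to TAAT (the core of homeodomain sites) and AGGTCA (a half-site of nuclear receptors).
Hoxa9: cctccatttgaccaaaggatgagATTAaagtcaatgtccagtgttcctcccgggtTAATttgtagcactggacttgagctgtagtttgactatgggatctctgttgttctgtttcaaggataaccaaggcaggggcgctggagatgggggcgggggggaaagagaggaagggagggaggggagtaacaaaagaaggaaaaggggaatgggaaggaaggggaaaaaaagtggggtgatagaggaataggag
Hoxb4: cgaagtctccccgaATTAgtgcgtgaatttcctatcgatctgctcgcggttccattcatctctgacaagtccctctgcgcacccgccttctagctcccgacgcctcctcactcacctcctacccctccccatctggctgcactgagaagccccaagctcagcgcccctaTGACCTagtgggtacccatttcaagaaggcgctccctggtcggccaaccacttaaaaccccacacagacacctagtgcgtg

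TAAT matched at 2 places in Hoxa9 and at 1 in Hoxb4, and at least 1 match was found in 54.9% of 32851 promoters of that length and in 18 of 24 promoters of 22 Hox genes. AGGTCA matched at 1 place in Hoxb4 and none in Hoxa9, against 14.0% of all promoters and 6 of the 24. Neither holds TGATTNAT (a Pbx and Hox site, 2.82% of all promoters, both strands) or TGACAG (a Meis and Pknox site, 15.9%). A match is a description of the letters only.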

How the data were processed

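Each array held 43379 gene spots of 41174 probes. Per the file headers, Agilent Feature Extraction 9.5.3.1 read the arrays, whose design gives mm7 coordinates, and the deposited foreground and background intensities are not normalized. The processed intensities, which the scanner software had background-subtracted and dye-normalized per the file headers, served as an alternative, and the deposited log10 ratio (red over green) as a check of direction. Other deposited columns are flags of 0 or 1 for outlier spots, saturation and signal over background. The authors' deposited log2 values run tumor over pool. Their scale and centring are unknown here, and the medians of the 12 columns run from -0.0715 to 0.137. Per the labels' protocols, the RNA was amplified with T7 polymerase before labelling.

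Intensities were corrected by normexp (offset 50) and normalized by loess in limma 3.58.1 (R 4.3.3). Outlier spots were left out (0.47% to 13.7% of gene spots of an array), and spots of a probe, then arrays of a labelled tumor, were averaged. The filter on dim probes asked for either RNA above background in 4 or more tumors, and 30838 probes passed it. Over the 30796 of them with a test, lmFit and eBayes set the tumor mean against 0 with Benjamini-Hochberg adjustment, after a test on simulated data. The pool counts as 1 control sample, so the spread between control tumors is left out. The labels do not say that the tumors are from separate animals, and if they are not, the p-values cover technical spread only. Slide 1 held the first arrays of tumors 1 to 4, slide 2 those of tumors 5 to 8 and slide 3 the swapped arrays, so slide 3 and the swapped dyes are confounded. The number of arrays limits the precision.

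Every Hox probe was a member and entered the counts, and 1 Hox gene and some results on other genes and sequences are not reported here by name. Values per array are given for genes called and for a gene whose probes differ in sign. Values per array of other Hox genes were picked after they were seen. Of the other lists, called genes are named, at most the 4 with the largest mean. The members and lists were chosen with earlier results of these data known. Names came from RefSeq (GRCm38.p6) by accession for 22951 probes, by symbol for 6659 and by an older symbol for 3109, and 8455 kept the name in the file. Sequences and counts were handled in Python 3.11.15 with pandas 2.3.3 and numpy 2.4.6.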

Additional observations from a re-analysis of the deposited data

Results flagged for a closer look

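Single tumors stood far from the others at some Hox probes, by Dixon's ratio of the gap to the range. Over the tumor means this held for 1 of 30 probes, Hoxc10 (A_51_P375754), at 1.78 in tumor 7 against -0.34 to 0.22 in the others. On the first arrays alone it held for 5 of 30 probes. These were the plus-strand Hoxb2 probe A_52_P15300 in tumor 4 (-0.27, against -3.79 to -2.52), Hoxb4 A_52_P565957 in tumor 4 (0.79, against -2.61 to -1.42), Hoxc10 A_51_P375754 in tumor 7 (1.78, against -0.55 to 0.34), and Hoxd9 in tumor 3 by both probes, A_51_P430728 (1.34, against -0.30 to 0.33) and A_52_P385584 (2.15, against -0.38 to 0.53). The Hoxd9 values rest on 7 tumors each, and with the outlier spots kept (0.83 in tumor 5 and 1.32 in tumor 1) the ratios were 0.31 and 0.33, which is under the limit. Chance alone puts about 5 percent of groups past this limit, and the Hoxd9 probes read 1 gene.

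Hoxc4 (A_51_P183481) differed between the dye orientations, with a median of 1.61 over the 6 first arrays measured and values of -1.73 to -0.85 on the swapped arrays. The dye term of the fit with best-matching pairs was 2.97 (log2, tumor in red minus tumor in green, limma adjusted p = 6.92e-08 over all probes).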

How the results depend on the processing

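The number of Hox probes called lower was 4, and it was within 1.5 times of that in 22 of 25 alternatives. It was 2 on the swapped arrays, 1 within slide 1 and 0 within slide 2, and 4 without any 1 tumor. The number called higher was 1, and it was 2 with the processed signals, 4 in the authors' value table and 4 with outlier spots kept. It was 0 on the swapped arrays, in both dye-term fits, within either slide, with the swapped arrays averaged with their best match and without those labelled tumors 2, 3 and 4, and it ran from 0 to 1 without 1 tumor. In the settings with 0, apart from slide 2, 1.61% to 7.93% of all probes were called higher. Averaging with the best match and leaving out those 3 arrays were chosen after seeing the data. One probe per gene gave 0 genes higher and 3 lower, against 1 and 3. Within slide 2, limma called 0 of 30606 probes, and 5844 had an unadjusted p under 0.05. Hoxc4 turned to -1.32 on the swapped arrays. The median of the Hox probes stayed between 0.09 and 0.26 in all alternatives. Members of the other lists called higher numbered 9 probes, where 5.19% of all probes were higher. They numbered 17 with median centring (9.05% of all probes), 18 with a dye term and labelled tumors (7.93%) and 4 with best-matching pairs (2.52%). Those called lower numbered 26 (10.1%), and 8 on the swapped arrays (3.74%) and 13 with best-matching pairs (3.62%). Each ratio sets a tumor against the pool on the same array. Pairing each tumor with a control tumor was not possible, because the control RNA was a pool without replicates. Of the 4 probes called lower, the smallest mean in size over the alternatives was -0.82, at Hoxa9 within slide 1, and none reversed. The causes of these shifts were not tested. Signal over background limits the 12 posterior probes that were not kept, for which no ratio is given.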
